A study of Homo sapiens with 3 samples.

Results

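The anaphase-promoting complex (APC/C) is represented here by 10 genes: its coactivators CDC20 and FZR1, its inhibitor FBXO5, its ubiquitin-conjugating enzymes UBE2C and UBE2S, and the subunits CDC27, CDC16, CDC23, ANAPC1 and ANAPC4. They were taken by gene symbol from a table of 14949 genes, each symbol matched 1 row, and the rule uses no measured value. The table holds RNA sequencing of MIAPaCa-2, a human cell line long established from a pancreatic cancer, in 3 groups of 1 library each. The untreated groups carried a control short hairpin (sh-CTL, the control library) or a hairpin against METTL3, which encodes the methyltransferase that writes m6A on RNA (sh-METTL3, the knockdown library). The last group was sh-CTL cells kept for 24 h in 80 nM NMS-P937, an inhibitor of the mitotic kinase PLK1 (sh-CTL + PLK1i, the treated library). All 3 groups therefore carried a hairpin, METTL3-depleted cells were not given the inhibitor, and the labels name no vehicle for the untreated cells.

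APC/C is a ubiquitin ligase that marks mitotic proteins for destruction by the proteasome. With CDC20 it removes securin and cyclin B at the start of anaphase, and with FZR1, whose protein is often called CDH1, it keeps mitotic proteins low from late mitosis through G1. FBXO5 encodes EMI1, which holds the complex inactive during S and G2 phase, while UBE2C starts ubiquitin chains and UBE2S extends them. Much of this control acts on proteins, through phosphorylation, binding and degradation, and RNA sequencing does not measure it.

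The recovered reads numbered 37449337 for the control, 46944892 for the knockdown and 47727490 for the treated library. The 10 genes had between 1122 and 22549 reads in a library. Levels are given as normalized read counts, and a difference is the log2 ratio of the normalized counts of 2 libraries after a pseudocount of 1 was added. Its 95% interval is an exact Clopper-Pearson interval on the reads. With 1 library per group there was no replicate check, no test was possible, and the intervals cover counting error alone in amplified reads without molecular identifiers. A difference was counted where its log2 change was at least 0.25 in size. METTL3 had 3939 normalized counts in control cells, 1651 in knockdown cells and 3888 in treated cells, which put the knockdown at 41.9% of the control. The epithelial keratins KRT8, KRT18 and KRT19 had at least 3361 reads in every library and VIM, a mesenchymal filament gene, at least 199813. The other epithelial markers of the list, EPCAM and the cadherin gene CDH1, were not found by symbol among the listed genes. Neither were the blood and endothelial markers PTPRC and PECAM1. In knockdown cells the log2 change was 0.26 for KRT8, 0.27 for KRT18, 0.43 for KRT19, -0.40 for VIM and 0.25 for ZEB1, the other mesenchymal marker, which was also at 0.39 in treated cells. COL1A1, a fibroblast marker, had 34, 6 and 36 reads in the control, knockdown and treated libraries. The part of such shifts in the results below was not tested. In bulk RNA, a different share of cells in a cycle stage and a different amount of RNA per cell cannot be told apart.

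The plainest difference among the 10 genes lay between the coactivators and between the conjugating enzymes after PLK1 inhibition. FZR1 and UBE2C were lower in treated cells than in control cells by a log2 change of 0.25 or more. CDC20 and UBE2S were somewhat higher and FBXO5 somewhat lower, each short of that limit. In knockdown cells none of the 10 genes differed from sh-CTL by a log2 change of 0.25, and the 5 subunits stayed within that limit in both comparisons.

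**Figure D1:**
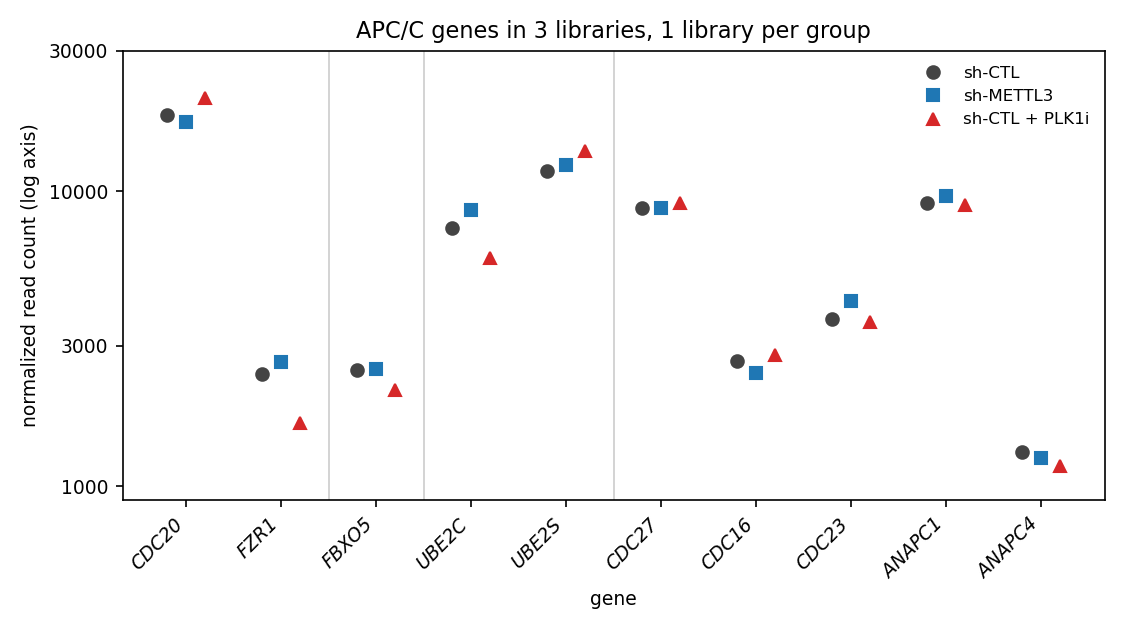
Normalized read counts (log axis) of the 10 APC/C genes in the sh-CTL, sh-METTL3 and sh-CTL + PLK1i libraries, 1 point per library, with grey lines between coactivators, inhibitor, conjugating enzymes and subunits. FZR1 and UBE2C show their lowest point in treated cells, at 1638 and 5942, while CDC20 and UBE2S show their highest there, at 20759 and 13666.

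Promoter sequences were read for the regulators, because these genes differed between libraries in opposite directions and several are transcribed in a cell cycle-dependent way. RefSeq (GRCh38.p14) windows of 250 bases before and 50 after the start were matched by symbol for 9 of the 10 genes, in 11 windows, and UBE2C had no entry. Capitals mark 2 motifs searched on both strands: CHR (TTTGAA), the element through which cell cycle repressor complexes bind, and the CCAAT box (CCAAT), bound by NF-Y. The windows run 5′ to 3′ on the strand of the gene.
CDC20 (chr1:43358731-43359030, plus strand): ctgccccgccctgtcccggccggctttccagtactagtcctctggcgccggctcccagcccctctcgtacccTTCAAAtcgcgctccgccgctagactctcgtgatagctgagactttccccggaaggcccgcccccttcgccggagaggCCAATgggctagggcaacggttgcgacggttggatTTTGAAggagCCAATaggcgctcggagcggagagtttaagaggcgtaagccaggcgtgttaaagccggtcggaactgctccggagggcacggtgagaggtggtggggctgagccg
FZR1 (chr19:3506061-3506360, plus strand): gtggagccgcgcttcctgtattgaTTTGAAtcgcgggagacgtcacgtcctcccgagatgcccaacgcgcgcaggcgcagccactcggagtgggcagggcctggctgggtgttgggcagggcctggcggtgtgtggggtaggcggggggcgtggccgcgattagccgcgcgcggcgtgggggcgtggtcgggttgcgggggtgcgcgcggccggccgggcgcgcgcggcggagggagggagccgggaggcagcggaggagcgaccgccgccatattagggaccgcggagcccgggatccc
FBXO5 (chr6:152982992-152983291, minus strand): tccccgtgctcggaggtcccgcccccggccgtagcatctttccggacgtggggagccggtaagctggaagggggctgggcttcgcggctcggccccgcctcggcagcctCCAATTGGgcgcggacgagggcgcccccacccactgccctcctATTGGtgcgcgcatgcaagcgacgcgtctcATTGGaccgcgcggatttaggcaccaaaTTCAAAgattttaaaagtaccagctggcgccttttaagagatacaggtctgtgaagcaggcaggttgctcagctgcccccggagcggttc
UBE2S (chr19:55407739-55408038, minus strand): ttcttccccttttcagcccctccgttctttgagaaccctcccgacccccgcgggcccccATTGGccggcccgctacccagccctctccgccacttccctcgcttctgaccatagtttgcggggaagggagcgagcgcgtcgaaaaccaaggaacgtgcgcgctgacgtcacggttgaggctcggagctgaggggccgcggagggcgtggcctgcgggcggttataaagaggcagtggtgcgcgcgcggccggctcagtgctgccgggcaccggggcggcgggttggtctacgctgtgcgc

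The CDC20 window held CHR on its own strand 65 bases before the start, between CCAAT boxes at 100 and 55 bases, and another CHR on the opposite strand at 178 bases. The FBXO5 window held CHR on the opposite strand at 40 bases with 4 CCAAT matches farther upstream, of which the pair at 141 and 138 bases overlap on opposite strands. The printed FZR1 window had 1 CHR, at 226 bases, and no CCAAT box, and UBE2S had 1 CCAAT box and no CHR. FBXO5 and FZR1 each had a further window, not printed, without a match to either motif. Over the 11 windows of the 9 genes, CHR letters were found in 4 and CCAAT in 6. Both were found in 1 window of 2 genes, CDC20 and FBXO5. Among all 35116 RefSeq promoters of this length, 15.2% held CHR, 34.6% CCAAT and 5.90% both, so the letters are common and a match is a description only. CDC20 and FBXO5, the genes with both motifs, had log2 changes of 0.19 and -0.23 in treated cells against the control. Each was short of the size at which a difference was counted, and a link between motifs and RNA levels was not tested.

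CDC20 (ENSG00000117399, hg19 chr1:43824652-43828874, plus strand) activates APC/C at the metaphase to anaphase transition and is the target of the spindle checkpoint. Its normalized count was 18190 in control cells, 17189 in knockdown cells and 20759 in treated cells. The treated library was thus the highest and sh-METTL3 the lowest. The log2 change was -0.08 (95% interval -0.11 to -0.05) in knockdown cells and 0.19 (0.16 to 0.22) in treated cells, both against the control. Between the knockdown and treated libraries, it was -0.27 (-0.30 to -0.24), which is the difference of the 2 changes above. It was -0.24, and so inside the limit of 0.25, under upper quartile scaling or relative to genes of like GC content and length. A processed copy of the gene, CDC20P1, had 6.69% as many reads as CDC20 in control cells, 6.51% in knockdown cells and 7.09% in treated cells, and reads of the 2 genes may not be separable.

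FZR1 (ENSG00000105325, hg19 chr19:3506309-3538332, plus strand) takes over from CDC20 late in mitosis and keeps APC/C active in G1. Its normalized count was 2406 in control cells, 2634 in knockdown cells and 1638 in treated cells, so the treated library stood below both untreated ones. The treated level was 68.1% of the control, a log2 change of -0.55 (-0.65 to -0.46). Among the 9074 genes with an average of 500 or more normalized counts, 0.915% were lower by a log2 change of 0.5 or more in this comparison. Shares at 0.5 were computed only for comparisons and directions in which FZR1 lay past it, so they are a description only. In knockdown cells the log2 change was 0.13 (0.05 to 0.21). The median of the 24 genes nearest to FZR1 on the chromosome was 0.19 in that comparison, and relative to it the sign turned, to -0.06. After PLK1 inhibition the neighbours' median was 0.03, far from the value of FZR1. sh-METTL3 exceeded sh-CTL + PLK1i 1.61-fold, a log2 change of 0.69 (0.60 to 0.77), and 4.28% of the genes averaging 500 or more were higher by 0.5 or more there. The neighbours' median was 0.21 in this contrast, and relative to it FZR1 was at 0.48, under 0.5. MFSD12 overlaps FZR1 on the opposite strand and had log2 changes of -0.17 in knockdown cells and -0.03 in treated cells. The library kit was stranded, but the strand setting of the count is not given in the sources used here.

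FBXO5 (ENSG00000112029, hg19 chr6:153291654-153304714, minus strand) encodes EMI1, which blocks APC/C until early mitosis and is then destroyed after phosphorylation by PLK1. Its normalized count was 2483 in control cells, 2494 in knockdown cells and 2117 in treated cells. The untreated libraries were nearly equal, with a log2 change of 0.01 (-0.08 to 0.09). The treated library was at 85.3% of the control, a log2 change of -0.23 (-0.32 to -0.14), just inside the limit of 0.25. Relative to the median of its 24 neighbours it was at -0.29, past that limit. Between the knockdown and treated libraries the log2 change was 0.24 (0.16 to 0.32), just inside the limit. It was past 0.25 under upper quartile scaling, at 0.27, and relative to its neighbours, at 0.26.

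The conjugating enzymes parted in the treated library. UBE2C (ENSG00000175063, hg19 chr20:44441215-44445596, plus strand), which places the initial ubiquitin, had 7514 normalized counts in control cells, 8641 in knockdown cells and 5942 in treated cells. The treated level was 79.1% of the control, a log2 change of -0.34 (-0.39 to -0.29), and sh-METTL3 stood 0.20 (0.16 to 0.25) above sh-CTL on the log2 scale, or 0.13 relative to the median of its 24 neighbours. UBE2S (ENSG00000108106, hg19 chr19:55911113-55919156, minus strand), which elongates the chains, had 11728, 12306 and 13666 normalized counts in the same order of libraries. It was highest in the treated library, with log2 changes of 0.07 (0.03 to 0.11) in knockdown cells and 0.22 (0.18 to 0.26) in treated cells, or 0.02 and 0.27 relative to its neighbours, the latter past the limit of 0.25. From sh-CTL + PLK1i to sh-METTL3 the log2 change was 0.54 (0.49 to 0.59) for UBE2C and -0.15 (-0.19 to -0.12) for UBE2S. UBE2SP1, a pseudogene of UBE2S with 892, 1067 and 1347 reads, had log2 changes of -0.07 and 0.25 against the control. Its reads and those of UBE2S may not be separable, and the UBE2S values were not recomputed with them. RPL28, which overlaps UBE2S on the opposite strand, had 14962, 19349 and 19569 reads and log2 changes of 0.04 and 0.05.

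**Figure D2:**
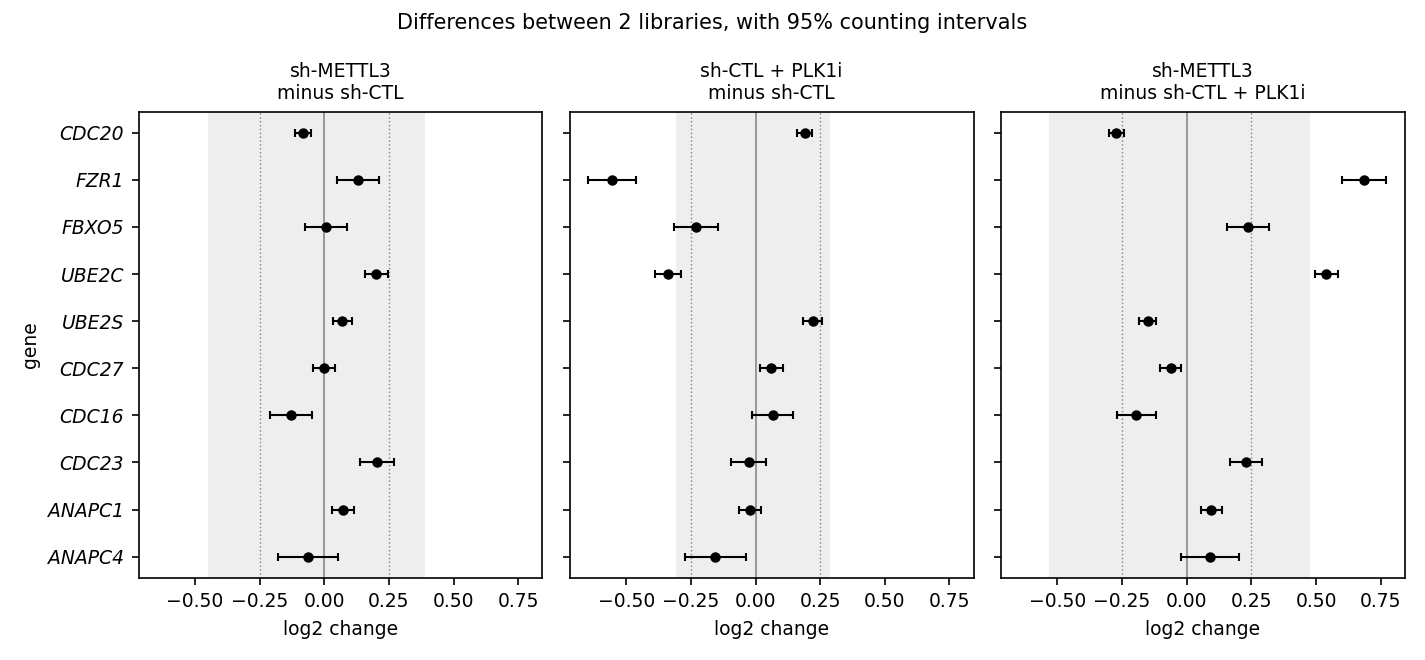
Log2 changes of the 10 APC/C genes with 95% counting intervals in 3 comparisons of 2 libraries, where the grey band spans the 5th to 95th percentile of the 9074 genes averaging 500 or more and dotted lines mark 0.25 in size. Against sh-CTL all 10 points lie inside the band in knockdown cells, and FZR1 (-0.55) and UBE2C (-0.34) lie outside it in treated cells.

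The 5 subunits are a part of the body of the ligase, and none of them reached the limit of 0.25 against the control. Of the other subunits, described below, ANAPC13 and ANAPC10 did. CDC27 (ENSG00000004897, hg19 chr17:45195069-45266788, minus strand), CDC16 (ENSG00000130177, hg19 chr13:115000362-115038198, plus strand) and CDC23 (ENSG00000094880, hg19 chr5:137523339-137549032, minus strand) form the arm of repeats that receives the coactivators, and ANAPC1 and ANAPC4 belong to the scaffold. CDC27 had 8778 normalized counts in control cells, 8775 in knockdown cells and 9157 in treated cells. CDC16 had 2657, 2431 and 2782 in that order, and CDC23 had 3684, 4246 and 3619. CDC16 was lowest and CDC23 highest in knockdown cells, with log2 changes against the control of -0.13 (-0.21 to -0.05) and 0.20 (0.14 to 0.27). Relative to the median of their 24 neighbours these were -0.04 and 0.13. KIF20A, which overlaps CDC23 on the opposite strand, was at 0.34 in the same comparison. ANAPC1 (ENSG00000153107, hg19 chr2:112369216-112642267, minus strand) had 9155, 9629 and 9017 normalized counts, and ANAPC4 (ENSG00000053900, hg19 chr4:25378885-25420120, plus strand), the least abundant of the 10 genes, had 1308, 1251 and 1175. Across the 5 subunits the log2 change against the control ranged from -0.13 to 0.20 in knockdown cells and from -0.16 to 0.07 in treated cells. Across the 5 regulators it ranged from -0.08 to 0.20 and from -0.55 to 0.22. The control library is shared by both comparisons, and their values are given side by side without a correlation.

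Counted over the 10 genes, sh-METTL3 against the control had 0 higher and 0 lower by 0.25 or more. Over all 14949 genes 19.9% were higher and 19.1% lower in that comparison, and over those averaging 500 or more the shares were 10.4% and 14.3%. In treated cells, 0 of the 10 genes were higher and 2, FZR1 and UBE2C, were lower. The background was 14.2% higher and 15.4% lower over all genes, and 7.15% and 7.52% over the abundant ones. Between the knockdown and treated libraries, 2 genes were higher, FZR1 and UBE2C, and 1 was lower, CDC20. Each value in this contrast is the difference of the 2 log2 changes against the control, so it is no independent repeat. Hairpin and inhibitor both differ in it. There the background was 24.3% higher and 23.3% lower over all genes, and 15.3% and 19.5% over the abundant ones. None of the 10 genes reached a log2 change of 1 in any comparison, against 6.37%, 2.52% and 7.47% of all genes in the same order of comparisons. With 10 genes these counts do not stand clear of the background shares, and they are given as a description. The interval excluded 0 for 7, 7 and 9 of the 10 genes, since counting error is small at these depths and says nothing of the variation between cultures. The median log2 change of the 10 genes was 0.04 in knockdown cells and -0.02 in treated cells, beside 0.00 for all genes in both.

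Ratios of genes within a library do not depend on the scaling between libraries. For each read of FZR1 there were 7.56 (7.22 to 7.92) reads of CDC20 in control cells, 6.52 (6.27 to 6.79) in knockdown cells and 12.7 (12.1 to 13.3) in treated cells. The treated ratio of coactivators was 1.68 times that of the control, and the intervals of the 3 libraries did not overlap. The ratio of UBE2S to FZR1 was 4.88, 4.67 and 8.34 in the same order, and the treated value was 1.71 times the control value. For FBXO5 to FZR1, the inhibitor against the coactivator, the ratio was 1.03 (0.971 to 1.10) in control cells, 0.947 (0.898 to 0.998) in knockdown cells and 1.29 (1.21 to 1.38) in treated cells. UBE2C to UBE2S, the enzyme that starts chains against the one that extends them, was 0.641, 0.702 and 0.435, which put the treated ratio at 0.679 times that of control cells. FBXO5 to CDC20 was 0.136, 0.145 and 0.102. The ratios of CDC20, UBE2S and FBXO5 to FZR1 share FZR1, so its log2 change of -0.55 in treated cells enters each of them. They are not separate shifts, and FBXO5 to FZR1 rose although FBXO5 itself was at -0.23. No background was computed for a change of a ratio. These are ratios of reads, and no ratio of proteins was measured.

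**Figure D3:**
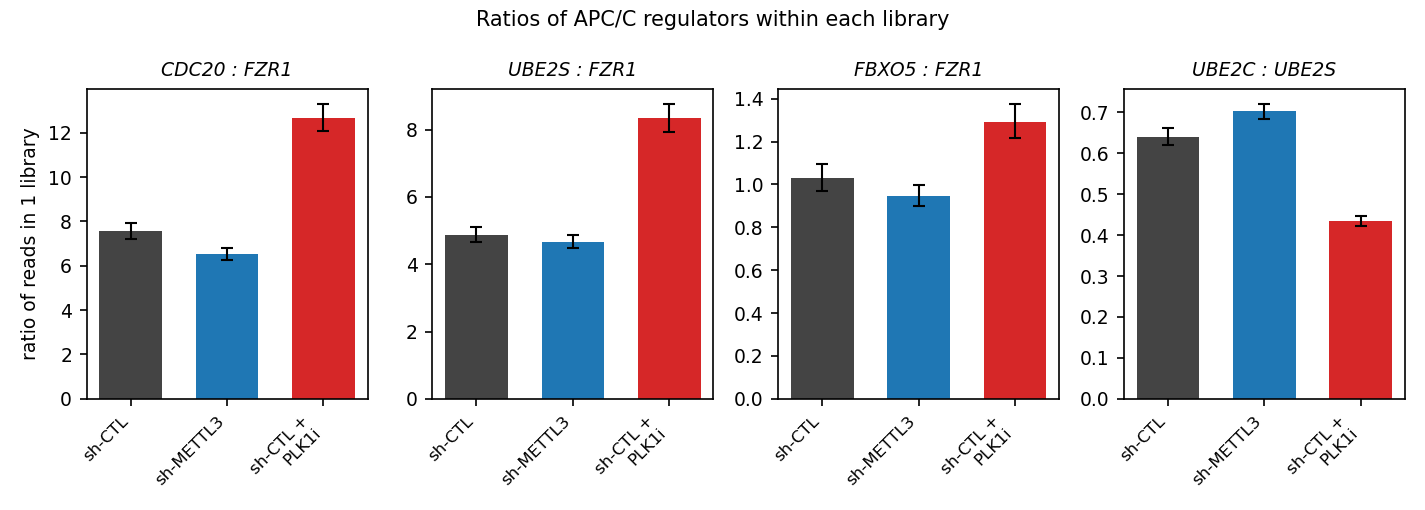
Ratios of reads between 2 genes within each of the 3 libraries (bars from 0, 1 library each, error bars 95% counting intervals). The CDC20 to FZR1 and UBE2S to FZR1 bars, which share FZR1, are highest in treated cells, at 12.7 and 8.34. The UBE2C to UBE2S bar is lowest there, at 0.435.

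Levels of different genes were compared per length, as RPKM (reads per kilobase of the longest annotated transcript, scaled to library size). In control cells this level was 234 for CDC20, 188 for UBE2C and 105 for UBE2S, and it was 34.5 for CDC27, 27.0 for ANAPC1, 26.9 for CDC23 and 26.1 for CDC16. FBXO5 was at 21.8, FZR1 at 10.6 and ANAPC4 at 7.87. CDC20 and the conjugating enzymes thus stood above every subunit, and by this length FZR1 stood below all but ANAPC4 and ANAPC10. The order depended on the length used, since the longest UBE2S transcript has 2559 bases and its median coding transcript 743. With median coding lengths UBE2S led at 361, followed by UBE2C at 244 and CDC20 at 243, and FZR1, at 22.1, stood above ANAPC16 at 19.9, CDC26 at 19.1 and ANAPC2 at 18.1 as well. FZR1 went from 10.6 in control cells to 7.20 in treated cells per longest transcript, while CDC20 went from 234 to 266. The longest transcripts held between 1 and 14 matches to GGACT, a sequence in which METTL3 methylates adenosine, from 0.343 per kilobase in CDC27 to 2.19 in UBE2C, with 1.93 in FZR1, 1.80 in ANAPC1, 0.563 in CDC20 and 0.383 in FBXO5, beside a median of 0.919 over 14744 genes. No m6A was measured in these libraries.

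**Figure D4:**
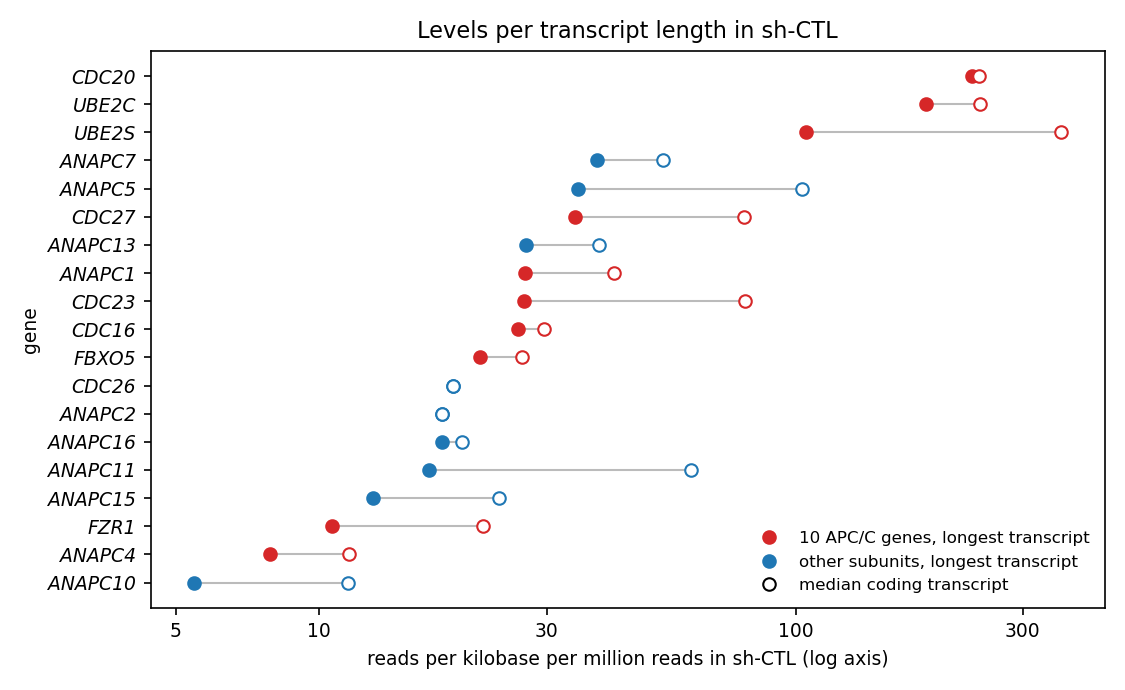
RPKM in the sh-CTL library (log axis) for the 10 APC/C genes (red) and the other subunits (blue), with filled points for the longest annotated transcript and open points for the median coding transcript. CDC20, UBE2C and UBE2S lie at the right with either length, above 100, and UBE2S moves from 105 to 361 between lengths.

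The remaining genes of the complex and its control were described from lists. These held 9 other subunits, 10 genes of the checkpoint, its silencing or further inhibition, 6 genes of EMI1 turnover and 30 substrates. Their counts are read beside the shares of all genes past 0.25, which were 19.9% higher and 19.1% lower in knockdown cells and 14.2% and 15.4% in treated cells. Among the other subunits, 1 was higher and 1 lower in knockdown cells, and 1 was higher and 0 lower in treated cells. ANAPC13, a small stabilizing subunit, had 2182 normalized counts in control cells, 2990 in knockdown cells and 1839 in treated cells, a log2 change of 0.45 (0.37 to 0.54) in knockdown cells. ANAPC10, which helps to bind substrates, had 399, 329 and 478, with log2 changes of -0.28 (-0.50 to -0.06) and 0.26 (0.06 to 0.46). ANAPC10 was thus lowest in knockdown cells and highest in the treated library, on few reads. ANAPC7, ANAPC15, ANAPC16 and ANAPC5 had the smallest differences, within 0.08 of 0 in both comparisons.

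In the checkpoint list, 0 of 10 were higher or lower in knockdown cells, and in treated cells 0 were higher and 1 was lower. That gene was FBXO43, the meiotic relative of FBXO5, with 129, 179 and 137 reads and an interval that included 0 (-0.25, -0.61 to 0.10). MAD2L1 and BUB1B, which hold CDC20 in the checkpoint complex, had log2 changes of 0.09 and 0.13 in knockdown cells and of 0.19 and 0.06 in treated cells. The list median was 0.11 in knockdown cells and 0.00 in treated cells. In knockdown cells 9 of 10 genes were above 0, by less than 0.25 each, beside 7502 of all 14949 genes. The 9 genes include TRIP13 and MAD2L1BP, both at 0.11, which silence the checkpoint. MAD2L2, TRIP13, TTK and BUB1B had the smallest differences of the list.

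EMI1 is removed by a cullin ligase after phosphorylation by PLK1. In this list 0 of 6 were higher and 2 lower in knockdown cells, PLK1 and CUL1, and 0 were higher and 1 lower, CDK1, in treated cells. PLK1, the kinase itself and also an APC/C substrate, had 8058 normalized counts in control cells, 5226 in knockdown cells and 8515 in treated cells. Its log2 change was -0.62 (-0.68 to -0.57) in knockdown cells and 0.08 (0.03 to 0.12) in treated cells. CUL1, the cullin scaffold, had 7118, 5433 and 7805, a log2 change of -0.39 (-0.44 to -0.34) in knockdown cells. CDK1, the mitotic kinase that phosphorylates APC/C, had 6487, 7165 and 4781, a log2 change of -0.44 (-0.50 to -0.39) in treated cells. SKP1, BTRC and RBX1, the other parts of the cullin ligase, stayed within 0.20 of 0 in both comparisons.

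Of the 30 substrates, 1 was higher and 3 lower in knockdown cells, and 3 were higher and 2 lower in treated cells. As shares of the list these were 3.33% and 10.0% in knockdown cells and 10.0% and 6.67% in treated cells. Each was below the share over all genes. Every substrate averaged 500 or more. Over all genes at that level the shares were 10.4% and 14.3% in knockdown cells and 7.15% and 7.52% in treated cells. Against these, the 10.0% higher in treated cells was above its share and the others were below. The lower genes in knockdown cells were PLK1, the separase gene ESPL1 (-0.33) and the cohesin protector SGO1 (-0.34), and the higher one was CKAP2 (0.33), a spindle protein gene. In treated cells the higher genes were the kinesin KIF18A (0.42), the mitotic kinase AURKA (0.36) and the phosphatase CDC25A (0.27). KIF18A had 2788 normalized counts in control cells, 2628 in knockdown cells and 3718 in treated cells, and AURKA had 9665, 10656 and 12415. The lower genes there were the transcription factor E2F1 (-0.40) and NUSAP1 (-0.29), a microtubule-binding protein gene. FOXM1, DLGAP5, NEK2 and CDC6 had log2 changes within 0.07 of 0 in both comparisons. PTTG1, which encodes securin, was at 0.13 in each, and CCNB1, which encodes cyclin B1, at 0.04 in knockdown cells and 0.12 in treated cells. The list median was 0.05 in both comparisons, and these RNA values do not measure degradation of the proteins.

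**Figure D5:**
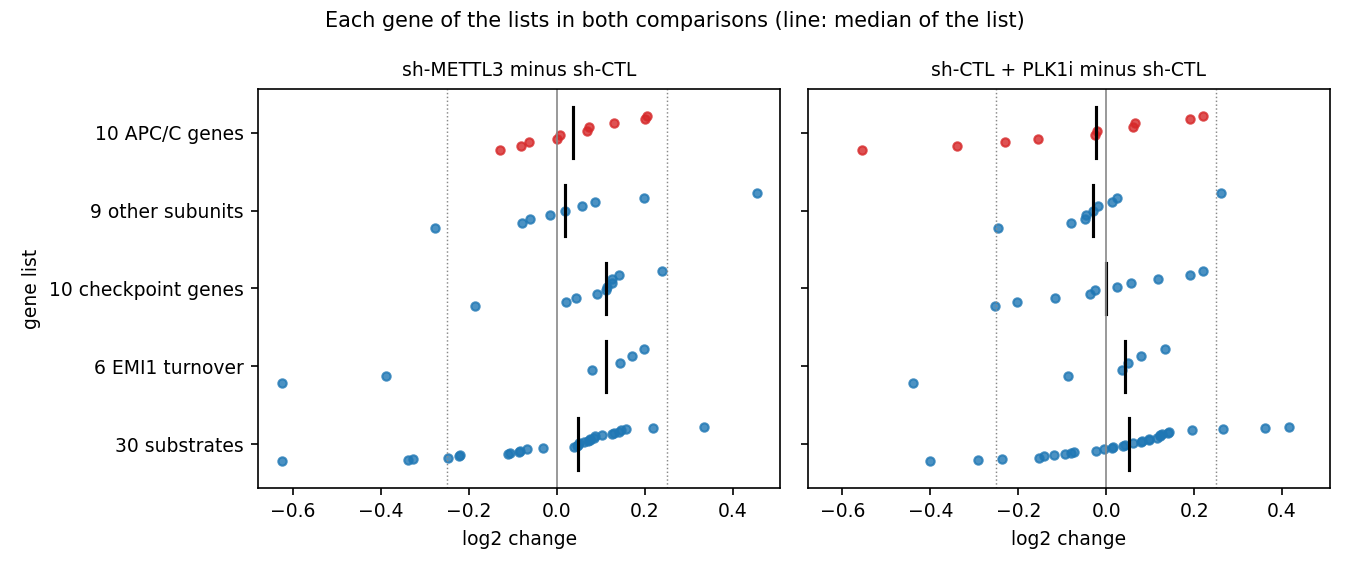
Log2 changes against the control in knockdown cells (left) and treated cells (right) for the 10 APC/C genes (red) and 4 further lists (blue), 1 point per gene, with a black line at each list's median and dotted lines at 0.25 in size. The medians lie between -0.03 and 0.11, and the point farthest from 0 is PLK1 on the left (-0.62, in 2 lists) and FZR1 on the right (-0.55).

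The pattern most like that of CDC20 over the 2 log2 changes against the control was sought among 9073 other genes averaging 500 or more. The nearest 5 were PGAM5, HPS5, ZPR1, QRSL1 and TSR1, at Euclidean distances of 0.0035 to 0.0074 on the log2 scale. As many as 632 genes lay within 0.1 of CDC20, so with 2 differences from 3 libraries the likeness is weak.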

How the data were processed

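RNA was sequenced from 3 MIAPaCa-2 cultures, 1 library each, grouped by sample title, and each of the 3 table columns was tied to a sample by the short form in its header. The values deposited by the authors were log2 expression levels in 1 table. The submitters' processing notes name FastQC 0.11.9, STAR 2.7.10, RSEM 1.3.3 and hg19, without roles, and the normalization and the annotation are not given in the sources used here. The deposited log2 values had a minimum of 2, the log2 of 4, so the log2 was undone and 4 subtracted. Steps between low values then gave what 1 read is worth (1.17 for the control, 0.927 for the knockdown, 0.921 for the treated library), and below 2000 reads 100% of values were within 0.1 of a whole number. Larger counts may be off by the rounding of the deposited decimals. The recovered reads ran from 37449337 to 47727490 per library. The smallest highest CPM of a gene was 0.503, so low genes are not described.

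Log2 changes used normalized counts plus 1, and intervals were exact Clopper-Pearson at 95%. The procedure was tested on simulated data. Named genes were all 10 genes, METTL3, each list gene past 0.25 on the log2 scale in either comparison against sh-CTL and a mean of at least 50, up to 4 genes per list with the smallest changes, and the 5 genes most like CDC20. MAD2L1, PTTG1 and CCNB1 were added after their values were seen. Members and lists were chosen with earlier results of these data known. Transcript lengths came from GENCODE 44 on hg19, and promoters from RefSeq. Alternatives covered pseudocounts, scaling, centring, neighbouring, equally abundant and composition-matched genes, thresholds, transcript length and pseudogene reads. Python 3.11.15, numpy 2.4.6, scipy 1.17.1 and pandas 2.3.3 were used.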

Additional observations from a re-analysis of the deposited data

How the results depend on the processing

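Of 466 values recomputed under alternatives, 421 stayed within their limits and 45 moved, and no counted difference changed direction. FZR1 in sh-CTL + PLK1i ranged from -0.59 to -0.54 and UBE2C from -0.38 to -0.32. At a log2 change of 0.15, 2 of the 10 genes were higher in sh-METTL3, 2 were higher and 4 lower in sh-CTL + PLK1i, and 4 were higher and 3 lower in sh-METTL3 than in sh-CTL + PLK1i. The share of all genes past 0.15 was not computed, so these counts have no background beside them. At 0.5, 1 was lower in sh-CTL + PLK1i and 0 were lower in sh-METTL3 than in sh-CTL + PLK1i. Of the genes averaging 500 or more, 0.915% were lower by 0.5 in sh-CTL + PLK1i. Upper quartile scaling gave 4 higher and 0 lower in that last contrast, where CDC20 lost its count and FBXO5 and CDC23 gained one, both at 0.27. Scaling by total reads gave 3 higher there. With a mean of at least 500, the background at 0.25 was 10.4% higher in sh-METTL3, 7.15% higher and 7.52% lower in sh-CTL + PLK1i, and 15.3% higher between them. Means in place of medians were -0.0699, -0.0383 and -0.0316 for EMI1 turnover, in sh-METTL3, sh-CTL + PLK1i and between them, against medians of 0.11, 0.04 and 0.14, and -0.0157 for substrates in sh-METTL3, against 0.05. CDC20P1 reads added to CDC20, a choice made after seeing the data like the composition-matched genes, gave CDC20 to FZR1 ratios of 8.07, 6.95 and 13.6. Relative to its neighbours on the chromosome FZR1 was at -0.06 in sh-METTL3 and 0.48 in the contrast without the control. In sh-METTL3 CDC16 was then at -0.04, CDC23 at 0.13, UBE2C at 0.13 and UBE2S at 0.02, and in sh-CTL + PLK1i CDC23 was at -0.11, ANAPC1 at -0.12, FBXO5 at -0.29 and UBE2S at 0.27, the last 2 past 0.25. Leaving out a replicate and a replicate block could not be run. No paired analysis was possible because each group had 1 library. Depth limited FBXO43 and ANAPC10 most.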
